A study of Mus musculus with 9 samples.

Results

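Skeletal muscle sarcomere and calcium-handling genes formed a set of 57 genes, and 57 of 57 were measured among the 30142 genes of the arrays. They were chosen by name, with earlier results of these data known. They cover the thin and thick filaments, the Z-disc and its membrane anchors, calcium release and uptake, and muscle energy supply and turnover. Each was represented by 1 transcript cluster, the array's unit for a gene. Total RNA of whole neck skin from male C57BL/6 mice, aged 6 to 8 weeks, was measured on 9 Affymetrix arrays in 3 groups of 3. The urushiol mice were sensitised on the abdomen with 2.0% urushiol (an allergenic oil that poison ivy makes) and challenged on the nape with 0.5% urushiol in 40 µl acetone. The oxazolone mice had the same doses of oxazolone, a synthetic hapten. After a rest of 5 days, each urushiol or oxazolone mouse was challenged 5 times up to day 8 and sampled 4 hours after the final application. The control group was described as healthy skin, and the sources used here do not say whether those mice were shaved or had acetone alone. The labels call the replicates biological.

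A sarcomere is the contractile unit of striated muscle: myosin thick filaments pull on actin thin filaments that are anchored at Z-discs. A nerve impulse opens the calcium release channel of the sarcoplasmic reticulum, calcium binds troponin C on the thin filament, and a calcium pump returns it to the store. Fibres are fast or slow according to the isoforms of myosin, troponin and pump that they carry. In mice a thin sheet of skeletal muscle, the panniculus carnosus, lies under the fat of the skin, so a sample of whole skin holds muscle fibres in an amount that depends also on how deep it was taken.

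All values are log2 expression values as deposited, and a difference of 1 is a doubling on that scale if the scale is true. A 16-bit scanner cannot exceed 16 on that scale, yet 17 members were above 16 on a control array and 0 on an allergen array. Over all genes, values above 16 were on every array, with 281 to 414 such genes on the control arrays and 469 to 584 on the allergen arrays. No source used here gives the step behind this, so the size of a difference may not be a true log2 ratio of RNA. The median of all clusters lay between 5.53 and 5.64 on each array, and a gene near it was taken as dim. In whole skin, fewer muscle fibres and less RNA per fibre cannot be told apart.

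Control array 3 stood apart from the other control arrays before any comparison. It was lower than both in 54 of the 57 members, with a median difference of -2.64 over the 57 members, and higher than all 6 allergen arrays in 48. The exceptions to the lower level were Tnni1, Tnnc1 and Myl3. Its hair follicle markers averaged 12.33, against a lowest control level of 6.06, and the part of either difference in the results below was not tested. Where leaving out this array changed a member's call or a list's count by over 1.5 times, both values are given.

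The muscle genes were far lower in the skin of both allergen groups. Differences were tested with limma in 1 fit of 9 arrays, with Benjamini-Hochberg adjustment over all 30142 genes and a threshold of 0.05. In urushiol skin 43 of 57 members were lower than in control skin and 0 were higher, where 6.43% of all genes were lower and 9.96% higher. Their median difference was -4.72, against 0.04 over all genes. In oxazolone skin 46 of 57 members were lower and 0 higher, where 6.92% of all genes were lower and 9.63% higher, and the median was -6.26, against 0.06 over all genes. The 3 urushiol arrays lay below the 3 control arrays, with no overlap, in 48 members, where 11.8% of all genes did so. The oxazolone arrays did so in 50 members, where 11.5% of all genes did. Both comparisons use the same control arrays. Quantile normalisation moved the split over all genes to 2297 higher and 2341 lower in urushiol skin, against 3003 and 1939 on the deposited values, and left 45 members lower. In oxazolone skin it gave 2127 higher and 2937 lower genes, against 2904 and 2085, and 48 members lower. With 3 arrays on each side, 0.1 is the lowest p that exact permutation allows, so single genes were judged by the fit across all genes.

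The urushiol count depended on single arrays. Without control array 3 it was 52, and without control array 1 or control array 2 it was 25 each. Without urushiol array 1, 2 or 3 it was 23, 28 or 26. Over all genes the number lower in urushiol skin moved too, to 3089 without control array 3, against 1939 in the fit of all arrays. Without control array 1 or control array 2 the number over all genes was 985 or 890. Of the 43 calls, 22 held whichever of the 9 arrays was left out, and of the 46 calls in oxazolone skin 39 did. The oxazolone count ranged from 39 to 52 when each array was left out in turn.

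**Figure D1:**
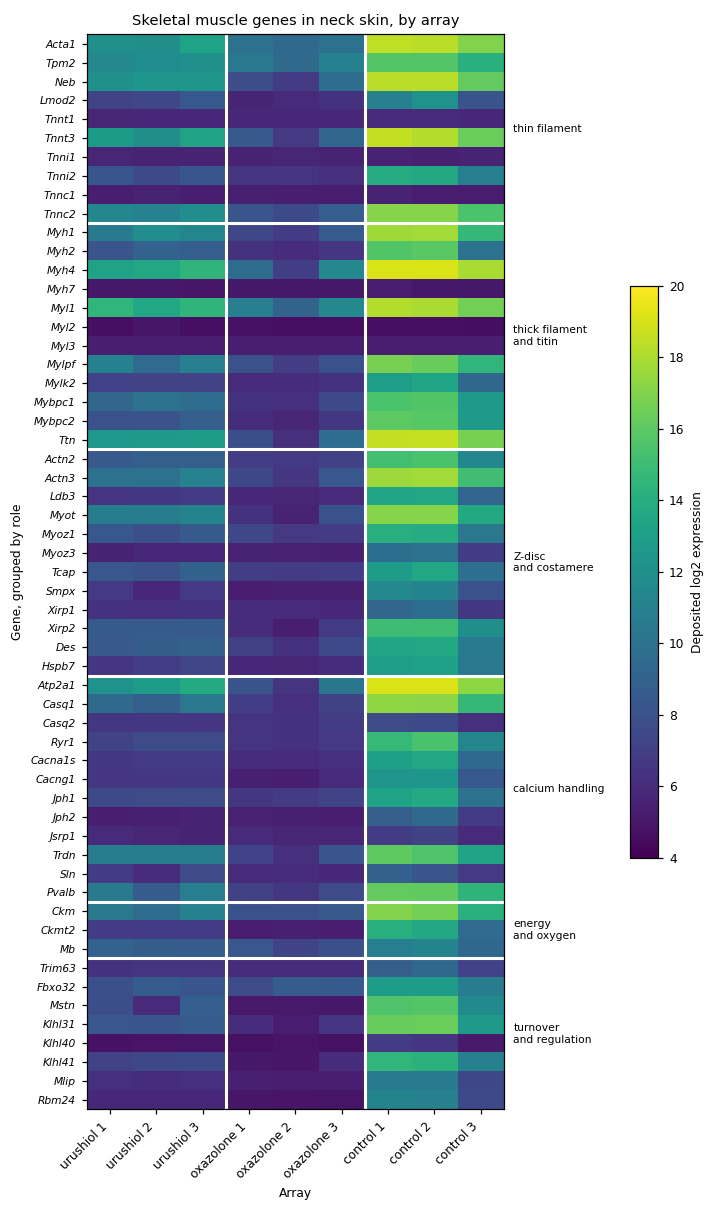
Deposited log2 expression of the 57 muscle genes (rows, grouped by role) on the 9 arrays (columns), with colour running from dark at low values to bright at high values. Control arrays 1 and 2 are the brightest columns, control array 3 is lower in 54 of 57 genes, and the slow-fibre genes such as Tnnc1 and Myh7 stay dark on all arrays.

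To show what lies at the start of genes that moved and of one with no call, promoter windows were read from the RefSeq table for GRCm38.p6. Each ran from 250 bases before to 50 bases after the start. Acta1 (chr8:123894726-123895025, minus strand), Myh4 (chr11:67237562-67237861, plus strand) and Tnnc2 (chr2:164779685-164779984, minus strand) fell in both allergen groups. Tnnc1 (chr14:31208062-31208361, plus strand) did not pass the threshold in either. It was near the array median in control skin too (5.62, 5.22 and 5.23), with little room for a fall. It is therefore not an example of a gene that stayed high. Capitals mark every match to the E-box CANNTG, to the CArG box and to the MEF2 site, searched on both strands.
Acta1: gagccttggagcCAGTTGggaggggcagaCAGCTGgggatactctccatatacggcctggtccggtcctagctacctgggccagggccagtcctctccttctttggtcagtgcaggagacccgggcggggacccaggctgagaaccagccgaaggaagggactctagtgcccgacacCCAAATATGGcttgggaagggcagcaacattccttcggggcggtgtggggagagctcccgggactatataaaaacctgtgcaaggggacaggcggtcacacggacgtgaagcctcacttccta
Myh4: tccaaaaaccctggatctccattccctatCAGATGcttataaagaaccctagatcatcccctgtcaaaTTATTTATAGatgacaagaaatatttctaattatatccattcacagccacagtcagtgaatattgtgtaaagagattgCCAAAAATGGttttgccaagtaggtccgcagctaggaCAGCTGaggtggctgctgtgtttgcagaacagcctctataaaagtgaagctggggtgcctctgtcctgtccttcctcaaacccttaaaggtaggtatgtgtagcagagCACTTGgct
Tnnc2: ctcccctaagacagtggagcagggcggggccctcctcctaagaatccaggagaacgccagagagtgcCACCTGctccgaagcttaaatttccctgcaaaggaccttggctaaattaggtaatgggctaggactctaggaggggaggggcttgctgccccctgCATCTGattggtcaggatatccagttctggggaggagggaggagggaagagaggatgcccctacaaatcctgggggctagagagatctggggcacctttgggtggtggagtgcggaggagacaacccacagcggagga
Tnnc1: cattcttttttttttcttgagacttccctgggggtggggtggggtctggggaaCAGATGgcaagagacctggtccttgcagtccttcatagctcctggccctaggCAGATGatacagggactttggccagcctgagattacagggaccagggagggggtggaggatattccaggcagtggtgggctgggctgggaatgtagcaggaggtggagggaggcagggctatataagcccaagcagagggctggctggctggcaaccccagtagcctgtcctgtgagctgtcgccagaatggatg
The E-box is the letters bound by MyoD and its relatives, the CArG box is bound by serum response factor, and MEF2 proteins bind their own A and T rich site. The table held 50 windows for 41 of the 57 members, since a gene can have several starts. CANNTG was present in 84.0% of the member windows, against 72.3% of all 32851 windows. The form CAGCTG, which is one of the CANNTG matches, was present in 52.0% of the member windows, against 16.3% of all windows. The CArG box stood in 10.0% of the member windows and in 1.6% of all, and the MEF2 site in 14.0% of the member windows and in 3.2% of all. Among the slow-fibre windows 10 of 10 held CANNTG, and among the fast-fibre windows 8 of 11 did. For CAGCTG these counts were 4 of 10 and 5 of 11, and for the CArG box 1 of 10 and 1 of 11. For the MEF2 site they were 1 of 10 and 3 of 11. The windows of Ckm and Atp2a1, which fell too and are not printed, held no CArG box or MEF2 site. A match describes the letters in the window and no more.

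Of the 10 thin filament genes, 6 were lower in urushiol skin and 7 in oxazolone skin, with median differences of -4.09 in urushiol skin and -5.65 in oxazolone skin. Skeletal alpha-actin, Acta1, which builds the thin filament, had values of 12.03, 11.89 and 13.27 in urushiol skin, 10.02, 9.53 and 9.96 in oxazolone skin, and 18.44, 18.37 and 16.99 in control skin. The 3 groups did not overlap, and control array 3 was the lowest control. Acta1 fell by 5.54 ± 0.50 (SE, n = 3 per group) in urushiol skin, with a limma adjusted p of 0.00129, and fell by 8.10 ± 0.50 in oxazolone skin, with an adjusted p of 0.000455. Nebulin, Neb, the giant ruler protein along the thin filament, had 12.05, 12.43 and 12.40 in urushiol skin, 7.76, 6.77 and 9.71 in oxazolone skin, and 18.27, 18.30 and 16.16 in control skin. Its urushiol arrays lay within a narrow band while its oxazolone arrays were spread widely below them. Neb fell by 5.28 ± 0.84 in urushiol skin and fell by 9.50 ± 0.84 in oxazolone skin. Tpm2, a tropomyosin that blocks the myosin sites on actin, fell (-3.43 in urushiol skin, -4.88 in oxazolone skin). Lmod2, a leiomodin that lengthens thin filaments, was at 7.25, 7.39 and 8.40 in urushiol skin, at 5.64, 5.96 and 6.35 in oxazolone skin, and at 10.97, 12.13 and 8.17 in control skin. Urushiol array 3 lay above control array 3 for this gene, and the difference of -2.74 did not pass the threshold (limma adjusted p = 0.0898). It fell by 3.87 ± 0.48 in urushiol skin without control array 3 (limma adjusted p = 0.00231). In the fit of all arrays Lmod2 fell by 4.44 in oxazolone skin (limma adjusted p = 0.0222). That call was lost when 1 of 5 arrays was left out, with an adjusted p of up to 0.0766, while the 6 calls in urushiol skin held without any 1 array.

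The troponins split by fibre type. Troponin T ties the troponin complex to tropomyosin, troponin I holds the filament off, and troponin C binds calcium. Fast troponin T, Tnnt3, had 12.72, 11.90 and 13.21 in urushiol skin, 8.46, 6.63 and 9.27 in oxazolone skin, and 18.50, 18.17 and 16.32 in control skin. Fast troponin C, Tnnc2, had 11.44, 11.08 and 11.85 in urushiol skin, 8.24, 7.60 and 8.77 in oxazolone skin, and 17.10, 17.10 and 15.45 in control skin. In both genes the groups stood apart without overlap, in the order control, urushiol, oxazolone from high to low. Tnnt3 fell (-5.05 ± 0.82 in urushiol skin, -9.54 ± 0.82 in oxazolone skin), and so did Tnni2, fast troponin I (-4.75 ± 0.74 in urushiol skin, -6.43 ± 0.74 in oxazolone skin). Tnnc2 fell too (-5.09 ± 0.51 in urushiol skin, -8.35 ± 0.51 in oxazolone skin). Slow troponin C, Tnnc1, had 5.37, 5.57 and 5.32 in urushiol skin, 5.41, 5.37 and 5.25 in oxazolone skin, and 5.62, 5.22 and 5.23 in control skin, so that its groups overlapped near the array median. Slow troponin T, Tnnt1, differed by -0.12 ± 0.05 in urushiol skin and -0.11 ± 0.05 in oxazolone skin, and slow troponin I, Tnni1, by 0.12 ± 0.07 in urushiol skin and 0.14 ± 0.07 in oxazolone skin, and neither passed the threshold. In control skin Tnnt1 averaged 5.89 and Tnni1 5.51, so all slow troponins were near the array median there, with little room for a fall.

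Of the 12 thick filament genes, titin included, 8 were lower in urushiol skin and 9 in oxazolone skin, with medians of -4.96 in urushiol skin and -7.74 in oxazolone skin. Titin, Ttn, the spring that spans the sarcomere from Z-disc to centre, had 12.52, 12.68 and 12.87 in urushiol skin, 7.83, 6.21 and 9.70 in oxazolone skin, and 18.56, 18.58 and 16.69 in control skin. It fell by 5.25 ± 0.89 in urushiol skin (limma adjusted p = 0.0109) and fell by 10.03 ± 0.89 in oxazolone skin (limma adjusted p = 0.00132). Myh4 encodes the myosin heavy chain of the fastest fibres, type IIb. It had 13.24, 13.60 and 14.48 in urushiol skin, 9.64, 6.94 and 11.50 in oxazolone skin, and 19.12, 19.09 and 17.94 in control skin. The oxazolone arrays covered a wide range, with array 2 near the dim level and array 3 well above it. Myh4 fell (-4.94 ± 1.07 in urushiol skin, -9.36 ± 1.07 in oxazolone skin), and the urushiol call (limma adjusted p = 0.024) was lost in 5 of the 9 fits that left out an array, with an adjusted p of up to 0.0842. Myh1, the heavy chain of type IIx fibres, fell (-5.49 ± 0.93 in urushiol skin, -9.11 ± 0.93 in oxazolone skin).

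Myh2, the heavy chain of type IIa fibres, showed the largest gap between control arrays. It had 8.21, 9.03 and 8.79 in urushiol skin, 6.25, 6.05 and 6.56 in oxazolone skin, and 15.68, 15.93 and 10.04 in control skin, so that control array 3 lay closer to the urushiol arrays than to the other controls. The groups did not overlap, the urushiol difference of -5.21 ± 1.45 missed the threshold (limma adjusted p = 0.0514), and in oxazolone skin Myh2 fell by 7.60 ± 1.45 (limma adjusted p = 0.0166). Without control array 3, Myh2 fell by 7.13 ± 0.27 in urushiol skin and fell by 9.52 ± 0.27 in oxazolone skin. The oxazolone call was lost without any of 5 arrays, with an adjusted p of up to 0.0587. Myh7, the heavy chain of slow and heart muscle, was at 5.03, 5.04 and 4.97 in urushiol skin, at 5.03, 5.03 and 5.03 in oxazolone skin, and at 5.26, 5.05 and 5.03 in control skin, below the array median throughout.

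The myosin light chains showed the same split, and the binding proteins did not. Fast regulatory light chain Mylpf fell (-5.34 ± 0.66 in urushiol skin, -8.19 ± 0.66 in oxazolone skin), and so did fast essential light chain Myl1 (-3.36 ± 0.69 in urushiol skin, -7.05 ± 0.69 in oxazolone skin). Slow light chains Myl2 and Myl3 had no call, at 0.11 and 0.02 in urushiol skin and 0.05 and 0.01 in oxazolone skin. Both lay below the array median on all 9 arrays, control arrays included, which left little room for a fall. Myosin-binding protein C, which sets the spacing of myosin heads, has a fast form, Mybpc2, and a form named for slow muscle, Mybpc1, that fast fibres carry too. Mybpc2 fell (-6.50 ± 0.85 in urushiol skin, -8.73 ± 0.85 in oxazolone skin), and so did Mybpc1 (-4.97 ± 0.82 in urushiol skin, -7.88 ± 0.82 in oxazolone skin). Mylk2, the kinase of the fast regulatory light chain, fell (-4.67 ± 0.98 in urushiol skin, -5.75 ± 0.98 in oxazolone skin). The urushiol calls of Myl1 and Mylk2 were each lost without any of 5 arrays, with an adjusted p of up to 0.0728 for Myl1 and 0.0722 for Mylk2.

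Of the 12 genes of the Z-disc and the costamere, the link from Z-disc to fibre membrane, 11 were lower in each allergen group, with medians of -4.78 in urushiol skin and -6.01 in oxazolone skin. Alpha-actinin crosslinks thin filaments at the Z-disc, and Actn3 is its fast-fibre form. Actn3 had 10.01, 9.95 and 11.12 in urushiol skin, 7.44, 6.55 and 8.33 in oxazolone skin, and 17.66, 17.76 and 15.12 in control skin. It fell by 6.49 ± 0.80 in urushiol skin (limma adjusted p = 0.00377) and fell by 9.41 ± 0.80 in oxazolone skin (limma adjusted p = 0.00121). Actn2, the form of all fibres and heart, fell (-5.30 ± 0.96 in urushiol skin, -7.07 ± 0.96 in oxazolone skin). Myotilin, Myot, an actin-binding Z-disc protein, had 10.80, 10.76 and 11.18 in urushiol skin, 6.32, 5.54 and 8.06 in oxazolone skin, and 17.12, 17.11 and 13.73 in control skin, and fell (-5.07 ± 1.02 in urushiol skin, -9.35 ± 1.02 in oxazolone skin). Desmin, Des, the intermediate filament that aligns neighbouring Z-discs and that smooth muscle also makes, fell (-3.87 ± 0.77 in urushiol skin, -5.61 ± 0.77 in oxazolone skin). Telethonin, Tcap, which caps titin at the Z-disc, fell (-3.60 ± 0.87 in urushiol skin, -5.17 ± 0.87 in oxazolone skin).

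The Z-disc gene without a call was Xirp1, an actin-binding repeat protein, with 6.26, 6.18 and 6.35 in urushiol skin, 6.00, 5.99 and 5.78 in oxazolone skin, and 9.27, 9.77 and 6.62 in control skin. Its groups did not overlap, and its differences of -2.29 in urushiol skin and -2.63 in oxazolone skin had a limma adjusted p of 0.0769 for urushiol and 0.051 for oxazolone. Xirp1 fell without control array 3 (-3.26 in urushiol skin, -3.60 in oxazolone skin). The related Xirp2 fell (-5.50 ± 0.82 in urushiol skin, -7.92 ± 0.82 in oxazolone skin). Urushiol calls of Ldb3, Myot, Myoz1, Smpx and Des were lost without any of 5 arrays, that of Actn2 without 1, and those of Myoz3 and Tcap without any array but control array 3, with adjusted p of up to 0.107. Ldb3 is a Z-disc adaptor, Myoz1 and Myoz3 are calcineurin-binding calsarcins, and Smpx is a small costamere protein. The oxazolone call of Myoz3 was lost in 6 of 9 such fits.

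Of the 12 calcium-handling genes, 9 were lower in each allergen group, with medians of -4.62 in urushiol skin and -5.76 in oxazolone skin. SERCA1, Atp2a1, the pump that returns calcium to the store of fast fibres, had 12.16, 12.79 and 13.79 in urushiol skin, 8.15, 6.46 and 10.31 in oxazolone skin, and 19.12, 19.18 and 17.29 in control skin. It fell by 5.62 ± 1.02 in urushiol skin (limma adjusted p = 0.0133) and fell by 10.22 ± 1.02 in oxazolone skin (limma adjusted p = 0.00191). The store's buffer in fast fibres, calsequestrin 1, Casq1, had 9.50, 8.90 and 10.36 in urushiol skin, 6.92, 6.14 and 7.12 in oxazolone skin, and 17.30, 17.21 and 14.67 in control skin. It fell by 6.81 ± 0.75 in urushiol skin (limma adjusted p = 0.00259) and fell by 9.67 ± 0.75 in oxazolone skin. Its slow and cardiac relative Casq2 had 6.62, 6.62 and 6.55 in urushiol skin, 6.45, 6.34 and 6.86 in oxazolone skin, and 7.63, 7.53 and 6.19 in control skin. Control array 3 was the lowest of all 9 for Casq2. The differences of -0.52 ± 0.37 in urushiol skin and -0.57 ± 0.37 in oxazolone skin had no call, while without control array 3 Casq2 fell (-0.98 ± 0.15 in urushiol skin, -1.03 ± 0.15 in oxazolone skin).

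Most genes of the release channel and its junction fell as well. The release channel Ryr1 had 7.25, 7.72 and 7.72 in urushiol skin, 6.39, 6.26 and 6.63 in oxazolone skin, and 14.73, 15.38 and 11.30 in control skin, and fell (-6.24 ± 0.96 in urushiol skin, -7.38 ± 0.96 in oxazolone skin). Triadin, Trdn, which anchors calsequestrin beside the channel, had the same value of 10.71 on all urushiol arrays, 7.20, 6.24 and 8.22 in oxazolone skin, and 16.04, 15.57 and 13.34 in control skin. It fell (-4.27 ± 0.76 in urushiol skin, -7.76 ± 0.76 in oxazolone skin). Cacna1s, the voltage sensor of the outer membrane, fell (-5.31 in urushiol skin, -6.00 in oxazolone skin), its subunit Cacng1 (-4.52 in urushiol skin, -5.52 in oxazolone skin), and Jph1, a junctophilin that holds the paired membranes together (-4.72 in urushiol skin, -5.43 in oxazolone skin). Jph2, the other junctophilin, was at 5.34, 5.41 and 5.55 in urushiol skin, 5.46, 5.42 and 5.29 in oxazolone skin, and 8.82, 9.50 and 6.74 in control skin. It fell (-2.92 ± 0.62 in urushiol skin, -2.96 ± 0.62 in oxazolone skin), both groups of allergen arrays being near the dim level. Parvalbumin, Pvalb, the soluble calcium buffer that speeds relaxation of fast fibres, fell (-5.53 ± 0.71 in urushiol skin, -8.42 ± 0.71 in oxazolone skin).

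The calcium genes without a call beside Casq2 were Jsrp1 and Sln. Jsrp1, a protein of the release junction, differed by -0.87 ± 0.26 in urushiol skin and -0.85 ± 0.26 in oxazolone skin, with a limma adjusted p of 0.0621 for urushiol and 0.0661 for oxazolone, and without control array 3 it fell (-1.20 ± 0.12 in urushiol skin, -1.17 ± 0.12 in oxazolone skin). Sarcolipin, Sln, a small inhibitor of the pump, had 6.77, 6.03 and 7.63 in urushiol skin, 5.98, 6.05 and 5.81 in oxazolone skin, and 8.88, 8.24 and 6.63 in control skin. The urushiol and control arrays overlapped. Its differences were -1.11 ± 0.61 in urushiol skin and -1.97 ± 0.61 in oxazolone skin, with a limma adjusted p of 0.265 for urushiol and 0.0681 for oxazolone, and without control array 3 it fell (-1.75 in urushiol skin, -2.61 in oxazolone skin). The urushiol call of Atp2a1 was lost without any of 3 arrays (adjusted p up to 0.0541), that of Jph1 without any of 3, of Cacna1s without either of 2, of Trdn without 1, and of Cacng1 and Jph2 without any of 5. In oxazolone skin only Jph2 among the 9 calls was lost, without any of 5 arrays (adjusted p up to 0.0774).

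Of the 3 energy and oxygen genes, 2 were lower in urushiol skin and 3 in oxazolone skin. Muscle creatine kinase, Ckm, which buffers ATP beside the filaments, had 10.42, 9.70 and 11.01 in urushiol skin, 8.02, 7.94 and 8.48 in oxazolone skin, and 16.95, 16.67 and 14.16 in control skin, and fell (-5.55 ± 0.73 in urushiol skin, -7.78 ± 0.73 in oxazolone skin). Its mitochondrial partner Ckmt2 had 6.84, 6.79 and 6.84 in urushiol skin, 5.30, 5.41 and 5.34 in oxazolone skin, and 14.01, 13.62 and 9.58 in control skin. The allergen arrays of Ckmt2 were tightly grouped and the control arrays were spread over several units. It fell (-5.58 ± 1.06 in urushiol skin, -7.05 ± 1.06 in oxazolone skin), and the urushiol call was lost without any of 3 arrays (adjusted p up to 0.0577). Myoglobin, Mb, the oxygen store that slow and oxidative fibres hold most of, had 9.01, 8.71 and 8.64 in urushiol skin, 8.34, 7.25 and 7.88 in oxazolone skin, and 10.86, 11.18 and 9.42 in control skin. The groups did not overlap, the urushiol difference of -1.70 ± 0.48 missed the threshold (limma adjusted p = 0.0521), and in oxazolone skin Mb fell by 2.66 ± 0.48 (limma adjusted p = 0.0134). The oxazolone call of Mb was lost without 1 of the arrays (adjusted p = 0.053), and without control array 3 Mb fell (-2.23 in urushiol skin, -3.20 in oxazolone skin).

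Of the 8 genes of muscle turnover and regulation, 7 were lower in each allergen group, with medians of -3.95 in urushiol skin and -4.61 in oxazolone skin. The ubiquitin ligases that are known to rise in wasting muscle, Trim63 (MuRF1) and Fbxo32 (atrogin-1), were among the genes that fell. Fbxo32 had 7.91, 8.68 and 8.30 in urushiol skin, 7.66, 8.63 and 8.50 in oxazolone skin, and 12.83, 12.82 and 10.72 in control skin. It fell by 3.83 ± 0.60 in urushiol skin (limma adjusted p = 0.00812) and fell by 3.86 ± 0.60 in oxazolone skin (limma adjusted p = 0.00831). Trim63 was at 6.33, 6.48 and 6.48 in urushiol skin, 6.00, 6.03 and 6.01 in oxazolone skin, and 8.86, 9.43 and 7.19 in control skin, and fell (-2.06 ± 0.50 in urushiol skin, -2.48 ± 0.50 in oxazolone skin). Myostatin, Mstn, the secreted brake on muscle growth, had 7.83, 5.91 and 8.78 in urushiol skin, 5.08, 5.10 and 5.00 in oxazolone skin, and 15.57, 15.74 and 11.57 in control skin. Its urushiol arrays varied by more than those of most members while its oxazolone arrays were all below the array median. Mstn fell (-6.79 ± 1.20 in urushiol skin, -9.23 ± 1.20 in oxazolone skin).

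Kelch proteins and other regulators made up the rest of that group. Klhl31, a kelch protein of skeletal muscle, had 8.33, 8.21 and 8.59 in urushiol skin, 6.03, 5.29 and 6.51 in oxazolone skin, and 16.26, 16.36 and 12.67 in control skin, and fell (-6.72 ± 0.95 in urushiol skin, -9.15 ± 0.95 in oxazolone skin). Klhl41, which stabilises nebulin, fell (-5.81 ± 0.90 in urushiol skin, -7.93 ± 0.90 in oxazolone skin). Klhl40, its close relative, was dim on all allergen arrays and differed by -1.31 ± 0.39 in urushiol skin and -1.39 ± 0.39 in oxazolone skin (limma adjusted p = 0.0615 for urushiol and 0.0506 for oxazolone). Klhl40 fell when control array 3 was left out (-1.82 ± 0.08 in urushiol skin, -1.90 ± 0.08 in oxazolone skin). Rbm24, an RNA-binding splicing factor of striated muscle, fell (-4.07 ± 0.89 in urushiol skin, -4.98 ± 0.89 in oxazolone skin), and Mlip, which binds lamin in striated muscle (-3.41 ± 0.79 in urushiol skin, -4.25 ± 0.79 in oxazolone skin). The urushiol calls of Trim63 and Mlip were lost without any array but control array 3 (adjusted p up to 0.107), that of Rbm24 without any of 5, and in oxazolone skin the call of Trim63 was lost without any of 5 arrays and that of Mlip without any of 3.

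**Figure D2:**
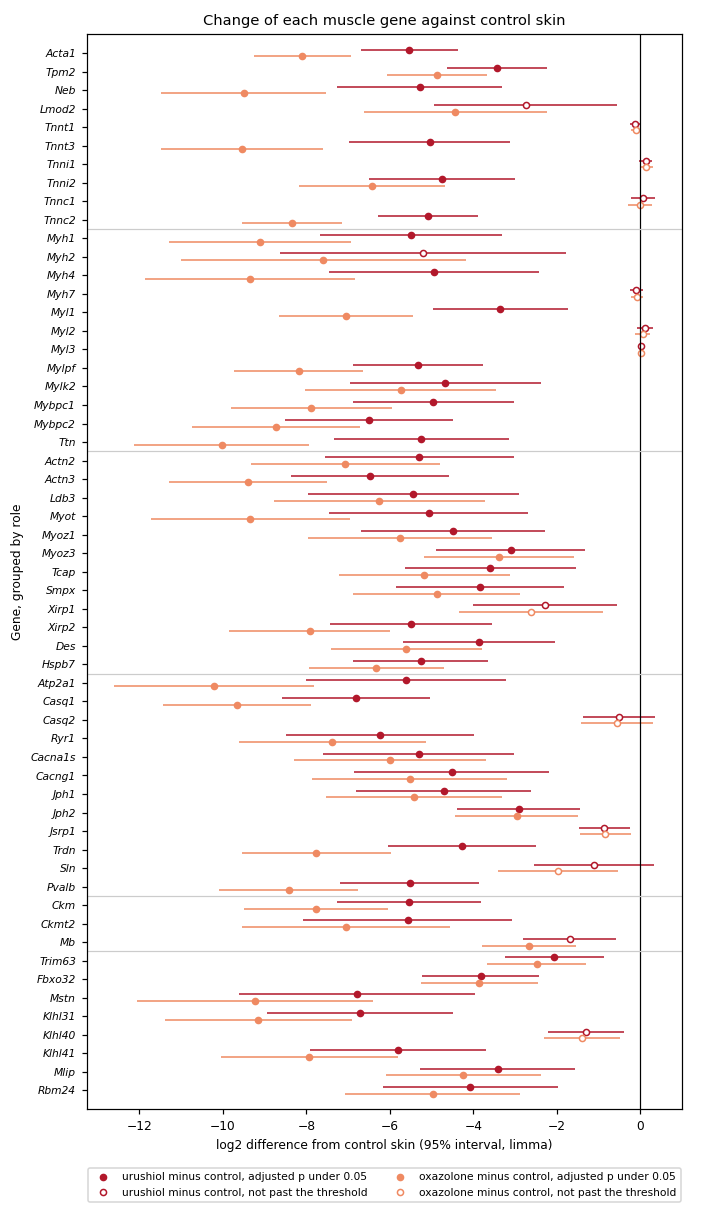
Log2 difference of each muscle gene from control skin with its limma 95% interval (urushiol and oxazolone points, genes grouped by role). Filled points passed an adjusted p of 0.05, which 43 urushiol and 46 oxazolone differences did, and all filled points lie below 0.

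Fast fibre genes fell and slow fibre genes had no call. The assignments to fibre type came from textbook knowledge and were made with earlier results of these data known. Of 15 genes assigned to fast fibres, 14 (Myh2 was the exception) were lower in urushiol skin and 15 in oxazolone skin. Their medians were -5.21 in urushiol skin and -8.42 in oxazolone skin. Of 7 assigned to slow fibres 0 were called in either direction, with medians of 0.02 in urushiol skin and -0.01 in oxazolone skin. At an unadjusted limma p under 0.05, 1 slow gene was lower in urushiol skin and 0 in oxazolone skin, where 12.0% of all genes were lower in urushiol skin and 12.5% in oxazolone skin. Without control array 3, Tnnt1 fell (-0.18 ± 0.04 in urushiol skin, -0.16 ± 0.04 in oxazolone skin), and Casq2 fell as given above. Of the slow genes, 6 were near or below the median of all clusters in control skin too, while Casq2, the exception, was at 7.63, 7.53 and 6.19 there. Whether slow fibres were lost cannot be told from the 6 genes that were already dim in control skin. Several of the slow genes are also heart muscle genes.

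In 7 of 9 pairs of a fast gene with its slow or shared counterpart, the second gene had no call in either allergen group. For the pair Casq1 and Casq2 the values were -6.81 and -0.52 in urushiol skin, and -9.67 and -0.57 in oxazolone skin. For Myh4 and Myh7 they were -4.94 and -0.10 in urushiol skin, and -9.36 and -0.08 in oxazolone skin. The exceptions were Mybpc2 with Mybpc1 and Actn3 with Actn2, in which both genes fell. There the fast gene's difference was larger in both allergen groups, and the gap between the paired genes was not tested. In control skin Mybpc1 was at 15.46, 15.64 and 12.64 and Actn2 at 15.16, 15.39 and 11.46, far above the array median.

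**Figure D3:**
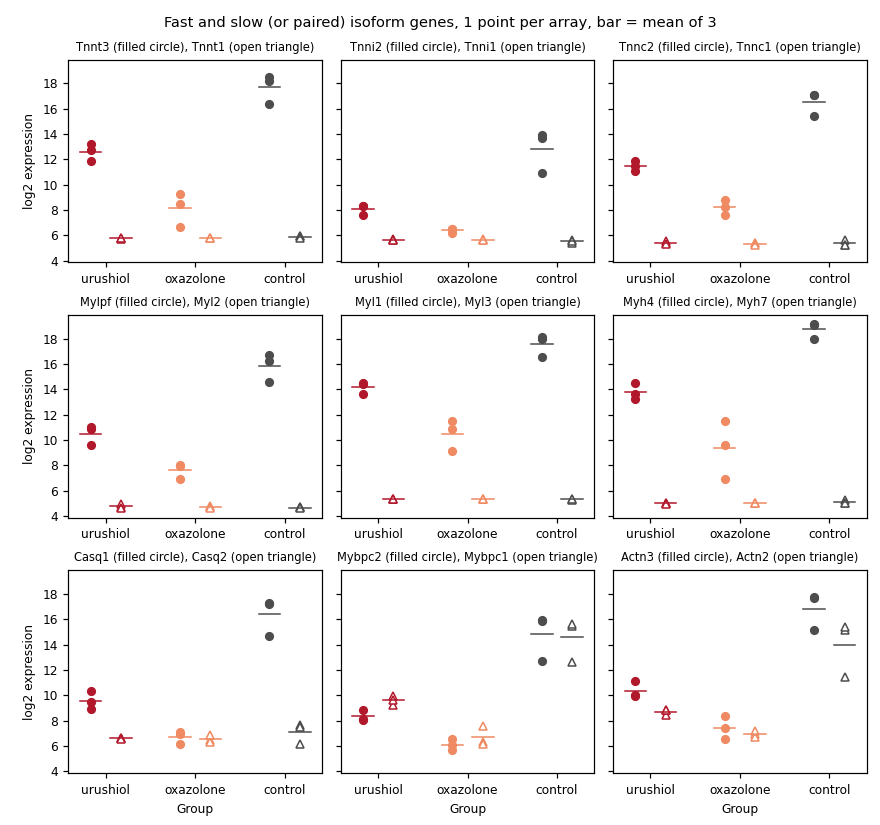
Deposited log2 expression per array of 9 gene pairs, fast gene as filled circles and slow or shared counterpart as open triangles, with the mean of 3 arrays as a bar. In 7 pairs the counterpart has no call in either allergen group in the fit of all arrays, and all of these but Casq2 are dim in control skin. Mybpc1 and Actn2 fall with their fast partners.

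Urushiol skin had higher values of the muscle genes than oxazolone skin, but 0 of 57 members passed the adjusted threshold in the test of one allergen against the other. The lowest limma adjusted p was 0.152, for Tnnc2, and only 2 genes of all 30142 were higher at that threshold (0.00664%) and 3 lower (0.00995%). The median difference of urushiol minus oxazolone was 1.47, against -0.003 over all genes. At an unadjusted limma p under 0.05, 22 members were higher and 0 lower, where 2.80% of all genes were higher and 3.08% lower. The 3 urushiol arrays lay above the 3 oxazolone arrays, with no overlap, in 45 of 57 members, where 5.35% of all genes did so. The 12 others were the 7 slow-fibre genes together with Jph2, Jsrp1, Sln, Fbxo32 and Klhl40.

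By role, the medians of urushiol minus oxazolone were 2.62 for thick filament genes, 1.69 for thin filament genes, 1.47 for energy and oxygen genes, 1.42 for Z-disc genes, 0.93 for calcium-handling genes and 0.87 for turnover and regulation genes. Arrays did not overlap in 12 of 12 Z-disc genes, 9 of 12 thick filament genes and 8 of 12 calcium-handling genes. Ttn differed by 4.78 with a 95% interval of 2.68 to 6.87 (limma adjusted p = 0.245). That of Atp2a1 was 4.61. For Tnnc2 it was 3.25, with an interval of 2.05 to 4.46. Fbxo32 differed by 0.03, with an interval of -1.37 to 1.44, so that these arrays leave room for a difference of over 1 unit in either direction.

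The fast genes had a median of 2.89 for urushiol minus oxazolone, and the arrays did not overlap in 15 of 15. The slow genes had a median of 0.01 and overlapped in 7 of 7. The size of the difference went with the brightness of the cluster in control skin, which depends on its probes as well as on its RNA. Among the 19 members with the highest control level (14.84 to 18.72) the median was 3.25, among the next 19 (11.06 to 14.58) it was 1.47, and among the lowest 19 (4.65 to 10.49) it was 0.09. Across the 57 members Pearson's r was 0.899 and Spearman's rho 0.936, and across the 50 members other than the slow genes they were 0.892 and 0.919. The points share the same 9 arrays and are not independent, so no p is given. Some genes were near the dim level in both allergen groups, Jph2 among them, and at that level a difference between the allergens may not be measurable.

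**Figure D4:**
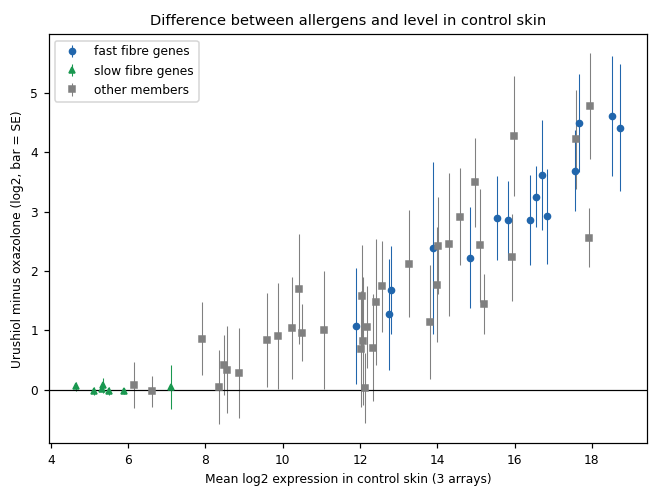
Urushiol minus oxazolone (log2, with limma SE) for each of the 57 muscle genes against its mean log2 expression in control skin. Differences lie near 0 for the dimmest genes, slow genes included, and reach 4.78 for Ttn among the brightest.

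Averaged over the 57 members and set against the control mean, the urushiol arrays stood at -4.07, -4.14 and -3.74, the oxazolone arrays at -5.73, -6.13 and -5.32, and the control arrays at 0.81, 0.85 and -1.66. The means were -3.98 ± 0.22 (SD) for urushiol and -5.72 ± 0.40 (SD) for oxazolone, with an SD of 1.44 for control (n = 3 each). The groups did not overlap, and the control arrays varied by more than either allergen group. Over the 15 fast genes the urushiol arrays were at -5.38, -5.65 and -4.84, the oxazolone arrays at -8.14, -9.06 and -7.52, and the control arrays at 0.90, 0.86 and -1.76. Oxazolone array 2 was the lowest of its group in 36 members and oxazolone array 3 the highest in 34.

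Lists of other muscle genes, outside the set, were read in the same fit. There 6.43% of all genes were lower and 9.96% higher in urushiol skin, and 6.92% and 9.63% in oxazolone skin. Of 12 genes of muscle energy metabolism, 11 were lower in urushiol skin and 12 in oxazolone skin, with medians of -4.55 in urushiol skin and -5.94 in oxazolone skin. Muscle glycogen phosphorylase, Pygm, had 10.00, 9.96 and 11.14 in urushiol skin, 7.07, 6.19 and 8.06 in oxazolone skin, and 17.49, 17.58 and 15.15 in control skin, and fell (-6.37 ± 0.78 in urushiol skin, -9.63 ± 0.78 in oxazolone skin). Ampd1, the muscle AMP deaminase, fell (-6.48 in urushiol skin, -8.16 in oxazolone skin), and so did Eno3, the muscle enolase (-5.40 in urushiol skin, -8.46 in oxazolone skin). Of 21 other sarcomere genes, 14 were lower in urushiol skin and 16 in oxazolone skin, among them Pdlim3, Nrap and Myom1, and 1 was higher in each. That gene was Tpm3, a tropomyosin that many cell types make in a non-muscle form, which rose by 0.32 ± 0.09 in urushiol skin and by 0.46 ± 0.09 in oxazolone skin. Both of these calls were lost under quantile normalisation, and the urushiol call also without control array 3. Of 13 other genes of excitation and calcium, 8 were lower in urushiol skin and 9 in oxazolone skin, among them the store channel Tmem38a (-5.49 in urushiol skin, -6.68 in oxazolone skin). Of 8 genes of the dystrophin complex and membrane repair, 6 were lower in each allergen group, among them dystrophin, Dmd (-3.55 in urushiol skin, -4.40 in oxazolone skin). Leaving out control array 3, 12 of the 13 excitation and calcium genes were lower in each allergen group, as were 20 of the 21 other sarcomere genes and 8 of the 8 genes of the dystrophin list. In that fit 3089 of all genes were lower in urushiol skin, against 1939 in the fit of all arrays, and 4566 higher, against 3003. For oxazolone skin these were 3270 lower, against 2085, and 4749 higher, against 2904.

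Of 11 genes of myogenic factors and satellite cells, 4 were lower in each allergen group: Myf6, the factor of mature fibres (-4.81 ± 0.93 in urushiol skin, -5.60 ± 0.93 in oxazolone skin), Mef2c (-3.20 in urushiol skin, -4.20 in oxazolone skin), Mef2d (-1.48 in urushiol skin, -1.43 in oxazolone skin), and Mef2a (-0.72 in urushiol skin, -1.17 in oxazolone skin). Myod1, Myog, Myf5 and the satellite cell factor Pax7 were near or below the array median on most arrays and had no call in the fit of all arrays. With control array 3 left out, 8 of the 11 were lower in each allergen group. Of 5 genes of developing or regenerating muscle, 0 were lower in urushiol skin and 1 in oxazolone skin, perinatal myosin Myh8, by 2.36 ± 0.50 (limma adjusted p = 0.0234), and without control array 3 the counts were 3 of 5 in each allergen group. None of the lists had a gene called between urushiol and oxazolone.

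Markers of other tissues of the skin sample were read in the same way. Over all genes 6.43% were lower and 9.96% higher in urushiol skin, and 6.92% and 9.63% in oxazolone skin. Without control array 3, of all 30142 genes 3089 were lower and 4566 higher in urushiol skin, and 3270 and 4749 in oxazolone skin. A count of 0 or 1 in a short list is therefore not read as a result about that tissue. Of 11 smooth muscle markers, 2 were lower and 1 higher in each allergen group, with medians of -0.19 in urushiol skin and -0.15 in oxazolone skin. Their differences ran from -1.68 to 1.03 in urushiol skin and from -2.13 to 1.46 in oxazolone skin. Without control array 3, 3 were lower in each, with 1 higher in urushiol skin and 2 in oxazolone skin. Smooth muscle actin, Acta2, differed by -0.34 ± 0.25 in urushiol skin and -0.13 ± 0.25 in oxazolone skin, with no call, while smooth muscle myosin, Myh11, fell (-1.22 in urushiol skin, -1.38 in oxazolone skin), and caldesmon, Cald1, rose by 1.03 in urushiol skin and by 1.23 in oxazolone skin. Of 6 heart muscle markers, 0 were lower and 1 was higher in each allergen group, Tnnt2. Of 10 adipocyte markers, 6 were lower in urushiol skin and 7 in oxazolone skin, with medians of -1.60 in urushiol skin and -1.68 in oxazolone skin. Adiponectin, Adipoq, fell (-1.82 in urushiol skin, -1.73 in oxazolone skin), and so did Car3, which muscle also makes (-2.69 in urushiol skin, -3.57 in oxazolone skin). Endothelial, fibroblast and Schwann cell markers were called lower in 0 of 5, 3 of 7 and 2 of 3 genes in urushiol skin, and in 1 of 5, 4 of 7 and 2 of 3 in oxazolone skin. When control array 3 was left out, the endothelial and fibroblast counts were 1 of 5 and 1 of 7 in urushiol skin, and 2 of 5 and 3 of 7 in oxazolone skin. Of 10 leukocyte markers 3 were higher in urushiol skin and 4 in oxazolone skin, with 1 lower in each, and of 8 epidermis markers 4 were higher in urushiol skin and 2 in oxazolone skin, with 1 lower in each. In the fit without control array 3, 2 leukocyte markers and 6 epidermis markers were higher in urushiol skin, and 3 leukocyte markers and 4 epidermis markers in oxazolone skin, with 1 of each list lower in each group.

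Hair follicle markers, 12 in number, had 0 calls in either comparison with control and medians of 3.15 in urushiol skin and 4.82 in oxazolone skin. Their mean level was 11.15 to 12.09 on the urushiol arrays, 11.90 to 14.65 on the oxazolone arrays, and 6.06 to 12.33 on the control arrays, control array 3 being the highest control. Without control array 3, 10 of the 12 were higher in urushiol skin and 12 in oxazolone skin. In that fit 4566 of all 30142 genes were higher in urushiol skin and 4749 in oxazolone skin. The allergen arrays thus had low muscle values beside high hair follicle and low adipocyte values, and control array 3 had intermediate muscle values beside high hair follicle values. The adipocyte markers of control array 3 were not low. Their average against the control mean was -0.041 there, and between -1.895 and -1.035 on the allergen arrays. The part of hair growth or of the depth of the sample in the muscle result was not tested.

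**Figure D5:**
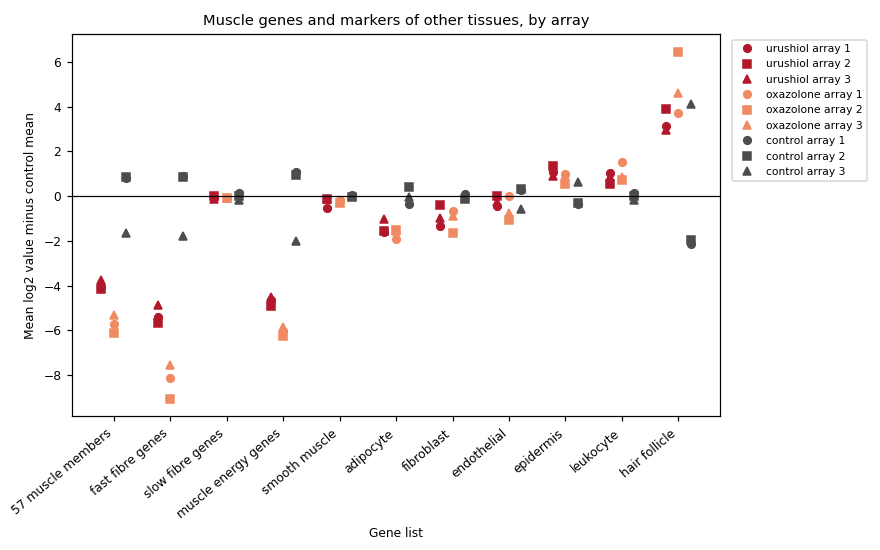
Mean log2 value of each gene list minus its control mean, 1 point per array (colour for group, shape for array number). The members, the fast genes and the muscle energy genes stand far below 0 on all allergen arrays, slow genes and smooth muscle stay near 0, and hair follicle markers spread from -2.14 to 4.12 among the control arrays.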

How the data were processed

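Total RNA of neck skin was hybridised to 9 Affymetrix arrays, and groups were taken from the sample titles. The authors deposited log2 expression, with 1 value for a transcript cluster on each array. Per the submitters' processing notes the tools were Affymetrix Expression Console 1.4, RMA and the Transcriptome Analysis Console, in no stated role or order. No source used here gives the genome build.

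Of 72688 features, 6732 array controls were left out, and 30604 of 65956 clusters had 1 gene symbol in the platform annotation, 2146 several and 33206 none. Symbols of 827 clusters were updated through a RefSeq table for GRCm38. The cluster with the highest mean over 9 arrays stood for each gene, which gave 30142 genes. Values were used without further normalisation or filter, the arrays carry no depth, and their number limits the precision. The median standard error of a difference from control was 0.789 for the members, against 0.113 for all genes.

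Differences were tested with the two-sided moderated test of limma 3.58.1 (R 4.3.3, functions lmFit and eBayes) in 1 fit of 9 arrays, with Benjamini-Hochberg adjustment over 30142 genes. The fit was first tested on simulated data. The members, the fast and slow assignments and the other gene lists were chosen with earlier results of these data known, so no list was tested. Members were named by role, with the largest and smallest differences, the paired genes and those whose call differed from their role. Of the other lists only some genes were named, not always those with the largest difference.

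Replicate numbers were checked by correlating deviations from group means. Same-numbered urushiol and oxazolone arrays correlated at 0.201, 0.197 and 0.124, and those with different numbers at -0.18 to 0.021. Over all comparisons, same-numbered arrays ranged from -0.232 to 0.337, the highest being control array 1 with oxazolone array 1. Arrays with different numbers ranged from -0.29 to 0.285, the highest being control array 3 with oxazolone array 2. Pairing was therefore not established, and no label gives it. Of all 9 same-numbered pairs 4 lay below 0.1, as did 13 of 18 other pairs. The main fit used no pairing in any comparison. Alternatives were quantile normalisation, median centring, averaging the clusters of a gene, leaving out dim genes, trended and robust variances, array weights, 2 groups alone, a replicate block and leaving out each array. Leaving out members above 16 was added after the data were seen.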

Additional observations from a re-analysis of the deposited data

How the results depend on the processing

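Under 19 settings 2949 member differences were recomputed, 163 calls were lost, 53 were gained, and 0 called differences changed sign. The number of members lower in urushiol skin was 25 with the 2 groups alone, 26 of 40 with members above 16 left out, and 23 to 52 when each array was left out. Their median was -3.84 without the members above 16 and -5.71 to -4.01 without 1 array. In oxazolone skin 32 members were lower with the 2 groups alone. Without the members above 16, 29 were lower there and the median was -4.93. The oxazolone ranges without 1 array were 39 to 52 and -7.29 to -5.51. Higher in urushiol than oxazolone was 1 member under array weights (Tnnc2, limma adjusted p = 0.0426), 1 with the 2 groups alone (Ckmt2, 0.00857) and 3 without control array 3 (Ckmt2, Mlip and Rbm24, 0.0299 each), so the range without 1 array was 0 to 3. The difference between the fast and slow medians without the members above 16 was -6.41 for oxazolone against control and 1.67 for urushiol against oxazolone, and without 1 array it was -9.44 to -8.08 for oxazolone against control and 2.53 to 3.31 for urushiol against oxazolone. The mean over members in oxazolone skin was -4.38 without the members above 16. The replicate block of 9 arrays gave 42 members lower in urushiol skin and 46 in oxazolone skin, and with either block 0 differed between the allergens. Over all genes, leaving out 1 array moved the number lower in urushiol skin between 863 and 3089 and in oxazolone skin between 974 and 3270, and the number higher between 1326 and 4566 in urushiol skin and between 1102 and 4749 in oxazolone skin. Between the allergens it moved the number lower in urushiol skin between 0 and 91 and the number higher between 0 and 7. Array weights gave 3203 lower genes in urushiol skin and 3131 in oxazolone skin, and the 2 groups alone gave 875 in urushiol skin and 936 in oxazolone skin. The cause of these shifts was not tested. No member was at the ceiling of the scale, so leaving out such members gave no separate value. The unknown scale above 16 and the 3 arrays per group limit the size and the precision of every difference.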

Other observations

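Of 5 muscle microRNA genes, 3 were lower in each allergen group (Mir1a-1hg, Mir1a-1 and Mir133a-1) and Mir1a-2 and Mir133a-2 had no call, with a limma adjusted p of 0.257 and 0.298 in urushiol skin and of 0.266 and 0.232 in oxazolone skin. The host gene of a muscle microRNA, Mir1a-1hg, was, like the other 4, outside the gene lists and chosen after values were seen. It had 5.57, 5.94 and 5.92 in urushiol skin, 5.51, 5.53 and 5.39 in oxazolone skin, and 9.90, 10.20 and 6.92 in control skin. It fell by 3.20 ± 0.79 in urushiol skin (limma adjusted p = 0.036) and fell by 3.53 ± 0.79 in oxazolone skin (limma adjusted p = 0.027). The microRNA gene Mir1a-1 fell by 2.15 in urushiol skin and fell by 2.50 in oxazolone skin.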
